A study of Mus musculus with 2 samples.

Results

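A set of 5 chemokines that attract T cells (Cxcl9, Cxcl10, Cxcl16, Ccl5 and Cxcl12) and 3 of their receptors (Cxcr3, Cxcr6 and Cxcr4) were followed through the cells of subcutaneous ovarian tumors grown in WT and TSK mice. The 8 genes were taken by name from the 32285 genes of the count tables, and all 8 had unique molecular identifiers (UMIs, each marking 1 captured RNA molecule) in both libraries. The tumors grew from 1000000 injected cells of SO, a syngeneic ovarian cancer line that lacks p53 and carries Hras and Myc, in C57BL/6 females 6 to 8 weeks old. TSK (tight skin) mice carry an intragenic duplication in 1 copy of Fbn1, the gene of the matrix protein fibrillin-1, in every cell of the host, while the injected cancer cells of both groups were the same line; WT mice carry no such duplication. Tumors were pooled by genotype and each pool gave 1 library of 3′ ends from separate cells. With 1 library per genotype nothing measured the spread between mice, no test between genotypes was possible, and genotype cannot be told apart from the handling of each pool. Values are therefore given with exact 95% intervals that cover counting error only.

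Chemokines are small secreted proteins that guide leukocytes through receptors on the cell surface. Cxcl9 and Cxcl10 are induced by interferon gamma and both bind Cxcr3, which is carried by activated CD8 and type 1 helper T cells and by NK cells. Cxcl16 is made as a membrane-anchored protein that can be shed, and its receptor Cxcr6 marks tissue-dwelling T cells. Ccl5 is secreted by activated T cells, NK cells and macrophages, and Cxcl12, a product of stromal cells, binds Cxcr4 and the scavenger Ackr3 and can hold lymphocytes in the stroma.

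Cxcl9 and Cxcl10 lie close together on the minus strand of chromosome 5 (GRCm38, GENCODE M21), Cxcl10 at chr5:92346638-92348889 and Cxcl9 at chr5:92321347-92328079. The 250 bases before the start of each gene are shown because the pair is induced together in many tissues and was described here by cell type. The sequences are from RefSeq (GRCm38.p6), read 5′ to 3′ on the strand of the gene, at chr5:92328080-92328329 for Cxcl9 and chr5:92348890-92349139 for Cxcl10. Capitals mark matches to GGGA followed by TTCC after 1 or 2 bases of any kind, letters like those bound by NF-kappaB, and to GAAA followed by GAAA after 2 bases, letters like those bound by interferon-response factors.
Cxcl9: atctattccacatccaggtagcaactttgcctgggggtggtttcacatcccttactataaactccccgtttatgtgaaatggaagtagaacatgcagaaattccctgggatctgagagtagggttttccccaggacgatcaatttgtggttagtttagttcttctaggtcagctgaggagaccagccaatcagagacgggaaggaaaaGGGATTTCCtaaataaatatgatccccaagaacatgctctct
Cxcl10: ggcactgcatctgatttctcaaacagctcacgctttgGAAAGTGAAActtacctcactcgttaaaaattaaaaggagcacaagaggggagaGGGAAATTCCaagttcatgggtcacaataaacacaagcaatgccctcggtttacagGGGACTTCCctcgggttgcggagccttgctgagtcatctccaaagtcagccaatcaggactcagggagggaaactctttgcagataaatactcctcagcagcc
Searched on both strands, the Cxcl9 window held GGGATTTCC, with its first base 42 bases before the start of the gene. The Cxcl10 window held GGGACTTCC at 103 bases, GGGAAATTCC at 159 bases and GAAAGTGAAA at 213 bases, and no match overlapped another. Of 32851 promoter windows of this length in the table, 1.43% held the first with 1 base between its parts, 1.21% held it with 2 bases, and 2.98% held the GAAA pair. The windows of Cxcl12, Cxcr3, Cxcr4 and Cxcr6 held none of these letters, and 6 of the 8 genes had a window. A match of letters is a description of the sequence and not a site of binding.

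The other members lie apart from this pair. Ccl5 is at chr11:83525778-83530518 and Cxcl16 at chr11:70453983-70459984, both on the minus strand. Cxcl12 is at chr6:117168535-117181367 on the plus strand. Of the receptors, Cxcr3 is at chrX:101731535-101734269 and Cxcr4 at chr1:128588199-128592293 on the minus strand, and Cxcr6 is at chr9:123806475-123811760 on the plus strand.

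The WT library held 2332 barcodes with 21225411 UMIs and the TSK library 4436 barcodes with 48296765 UMIs. Cells were kept with at least 200 genes, at least 500 UMIs and at most 10% mitochondrial UMIs. The 263 barcodes found in both libraries were left out, since 1 barcode cannot be assigned to 1 of them. This left 1442 WT cells (median 7658.5 UMIs) and 2961 TSK cells (median 7302 UMIs). Each cell was placed in a lineage by its raw UMIs of marker genes that are not members, with at least 3 UMIs from at least 2 markers making up at least 60% of all its marker UMIs. Fibroblast and mural markers were summed for that share, and a cell was called mural where mural markers gave at least 10% of this sum, so the mural cells held a median of 61 fibroblast and 28.5 mural marker UMIs. The T lineage had 461 cells in the WT library, 32.0% of those kept (29.6 to 34.4%), and 275 cells in the TSK library, 9.29% (8.27 to 10.4%). Monocytes and macrophages made up 24.5% and 16.1% (353 and 478 cells), fibroblasts 11.4% and 9.59% (164 and 284 cells), and cancer cells 5.96% and 30.0% (86 and 889 cells). Endothelial cells numbered 59 and 49, mural cells (pericytes and smooth muscle) 18 and 50, neutrophils 42 and 219, NK cells 15 and 17, and dendritic cells 8 and 9. No lineage was given to 218 WT and 666 TSK cells. Of all UMIs, cancer cells held 17.4% (WT) and 59.3% (TSK), T cells 19.6% and 1.91%, and cells without a lineage 7.33% and 18.1%. The shares of a gene's UMIs by lineage given below also carry this makeup. In the 9 lineages named above all defining markers were detected in their cells (9 of 9 for T cells, led by Themis, and 7 of 7 for fibroblasts, led by Col3a1), except in dendritic cells, with 8 of 9.

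Some properties of the libraries moved with genotype in the main lineages and stand beside all values below. T cells of the WT library held a median of 6698 UMIs and those of the TSK library 2917, and fibroblasts held 22214 and 11184.5. Markers of cancer cells were more abundant in the T cells, macrophages and fibroblasts of the TSK library. They summed to 70.2 CPM (UMIs per 1000000 UMIs of the lineage) in WT fibroblasts, with 5 of 6 markers detected and Cdkn2a the most abundant, and to 403 CPM in TSK fibroblasts, with 6 of 6 detected and Lgals7 the most abundant at 122 CPM. The same list was at 141 CPM in TSK macrophages and 110 CPM in TSK T cells. Among cells without a UMI of these markers the log2 ratio of TSK over WT was -0.89 for Cxcl12 and -0.17 for Cxcl9 in fibroblasts and -2.41 and -1.36 in endothelial cells, against -1.30, -0.83, -1.65 and -1.84 in all cells of these lineages. Fbn1 itself was at 1442 CPM in WT fibroblasts (5360 UMIs) and 1405 CPM in TSK fibroblasts (5337 UMIs). The counted 3′ end cannot show the duplication, so this level does not check the genotype label.

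Cxcl12 and Cxcl9 were lower in fibroblasts and endothelial cells of the TSK library, while Cxcr6 and Cxcr3 differed by less than counting error in T cells. Cxcl12 was at 719 CPM in WT and 292 CPM in TSK fibroblasts, a 2.47-fold difference. Cxcl9 was at 1133 and 317 CPM in endothelial cells and at 681 and 382 CPM in fibroblasts, but at 337 and 314 CPM in macrophages. Among cells with 10000 UMIs or fewer, Cxcl12 in fibroblasts (log2 ratio -0.35, -0.84 to 0.17) and Cxcl9 in endothelial cells (-0.25, -0.62 to 0.12) differed within counting error. Cxcr6 was at 178 and 193 CPM in T cells. Over the whole libraries every one of the 8 genes was lower in the TSK library, with folds from 1.45 for Cxcl10 to 8.11 for Cxcr6, though for Cxcl9, Cxcl10 and Cxcl16 this direction turned when cells over 10000 UMIs were left out.

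**Figure D1:**
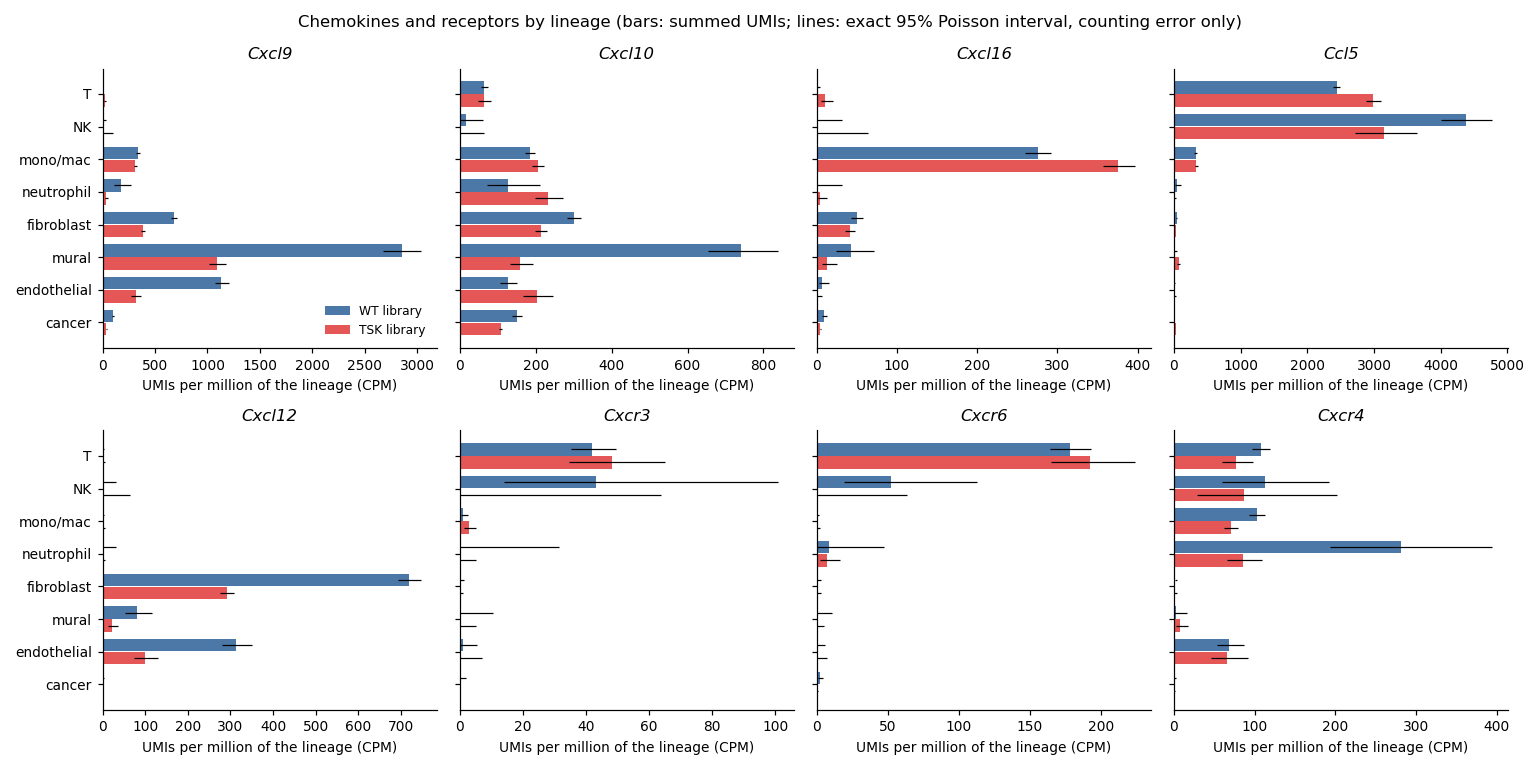
Level of each gene (CPM) in 8 lineages of the WT (blue) and TSK (red) libraries; bars are summed UMIs and lines are exact 95% Poisson intervals. Among these lineages Cxcl12 reached 20 CPM only in fibroblasts, endothelial and mural cells, with the WT fibroblasts at 719 CPM and the TSK fibroblasts at 292 CPM.

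Cxcl12, the ligand of Cxcr4, came almost wholly from fibroblasts, which held 86.8% of its 4356 UMIs, with 8.33% in endothelial cells. The WT fibroblasts held 2672 UMIs (719 CPM, 692 to 747) and the TSK fibroblasts 1108 UMIs (292 CPM, 275 to 309). The intervals did not overlap, and the log2 ratio of TSK over WT was -1.30 (-1.40 to -1.20). The difference was spread over many cells: 73.8% of WT and 54.2% of TSK fibroblasts had a UMI, the 5 highest cells held 20.5% and 23.0% of the UMIs, and the median cell was at 247 and 70.4 CPM. These unthinned values also depend on the depth of the cells. With each cell thinned to 1000 UMIs, 31.6% of WT fibroblasts (24.5 to 39.5%) and 19.4% of TSK fibroblasts (14.9 to 24.5%) had a Cxcl12 UMI. The 2 intervals overlap at their ends. Thinned in the same way, 0.291% of WT and 0.224% of TSK macrophages had one, which served as the background from free RNA. Without thinning 0.850% and 1.67% of macrophages had one, at median depths of 9610 and 6285.5 UMIs. Endothelial cells showed the same direction, with 310 UMIs in WT cells (314 CPM, 280 to 351) and 53 UMIs in TSK cells (99.9 CPM, 74.8 to 131). There the log2 ratio was -1.65 (-2.10 to -1.23), and 66.1% and 24.5% of the cells had a UMI. At 1000 UMIs per cell these shares were 23.7% (13.6 to 36.6%) and 10.9% (3.62 to 23.6%), which overlap. The 5 highest endothelial cells held 40.6% and 75.5% of the UMIs. Among endothelial cells with 10000 UMIs or fewer the ratio was -3.08 (-4.12 to -2.17), and among deeper ones -1.20 (-1.72 to -0.72).

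Cxcl12 levels differed with the detection of 3 other genes in a fibroblast and with the depth of the cell. Fibroblasts with a UMI of Clec3b, Pi16 or Cd34, genes of adventitial and progenitor-like fibroblasts, held nearly all of it. They were at 804 CPM in 142 WT cells (774 to 835) and at 391 CPM in 203 TSK cells (367 to 416). Fibroblasts without these genes were at 19.9 CPM (22 cells, 8 UMIs) and 66.9 CPM (81 cells, 78 UMIs). Summed in this way they were higher in the TSK library by a log2 ratio of 1.75 (0.70 to 3.01). However, 1 TSK cell held 36 of the 78 UMIs, and 22.7% of these WT cells and 21.0% of these TSK cells had a UMI. With equal weight per cell the direction turned, the means being 292 CPM (WT) and 136 CPM (TSK). Fibroblasts without these genes were 13.4% of WT and 28.5% of TSK fibroblasts, and the log2 ratio within fibroblasts with them was -1.04 (-1.14 to -0.94). A shallower cell more often lacks a UMI of these genes. Median depths were 23792 (WT) and 11320 UMIs (TSK) with them and 14222.5 and 9418 UMIs without. A difference in kinds of fibroblast therefore cannot be told apart from one in depth. Among fibroblasts with over 10000 UMIs, Cxcl12 was at 736 CPM in 132 WT cells and 305 CPM in 161 TSK cells (log2 ratio -1.27, -1.38 to -1.16). Among those with 10000 UMIs or fewer, it was at 294 CPM in 32 WT cells (43 UMIs) and 231 CPM in 123 TSK cells (163 UMIs), a difference within counting error (-0.35, -0.84 to 0.17).

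Of the 5 members with at least 20 UMIs in fibroblasts, 1 (Cxcl12) was at least 2-fold lower in the TSK library and 0 were 2-fold higher. Among all 11848 genes with that many UMIs in fibroblasts, 4.48% were at least 2-fold lower and 14.9% at least 2-fold higher (19.3% in either direction). The median log2 ratio of the 5 was -0.49 against 0.34 for all these genes. That median was above 0 in each lineage (0.14 in T cells, 0.27 in macrophages and 0.33 in endothelial cells), so ratios per total UMIs understate a lower level in the TSK library relative to the typical gene of the lineage. Of 4 members in endothelial cells, 2 (Cxcl9 and Cxcl12) were at least 2-fold lower in the TSK library and 0 higher, beside 6.23% lower and 15.6% higher among 7288 genes (21.8% in either direction), and the median log2 ratio of the 4 was -0.86.

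Cxcl9, a ligand of Cxcr3, came from stroma and macrophages together. Fibroblasts held 38.003% of its WT and 29.0% of its TSK UMIs, macrophages 20.3% and 22.2%, and mural cells 14.9% and 15.2%. Endothelial cells held 16.8% and 3.36%, cancer cells 4.32% and 20.1%, and T cells 0.120% and 0.340%. Cells called mural had the highest level per RNA in both libraries, at 2850 CPM (18 cells) and 1095 CPM (50 cells), but the 5 highest cells held 89.4% and 61.2% of those UMIs. This order depended on the settings: with at most 10000 UMIs per cell endothelial cells were highest in the WT library, and with lineages from clusters, which left 0 mural cells, endothelial cells were highest in the WT and fibroblasts in the TSK library. In fibroblasts the WT library held 2531 UMIs (681 CPM, 655 to 708) and the TSK library 1451 UMIs (382 CPM, 362 to 402). The WT level was higher and the intervals did not overlap (log2 ratio -0.83, -0.93 to -0.74). The shares of cells with a UMI were closer: at 1000 UMIs per cell, 17.7% of WT (12.1 to 24.6%) and 16.1% of TSK fibroblasts (12.0 to 21.0%) had one, intervals that overlap almost wholly. Few cells held much of the sum: 1 WT fibroblast held 438 Cxcl9 UMIs, and the 5 highest held 52.8% of the WT and 35.8% of the TSK UMIs. Without the 5 highest cells of each library the log2 ratio was -0.41.

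**Figure D2:**
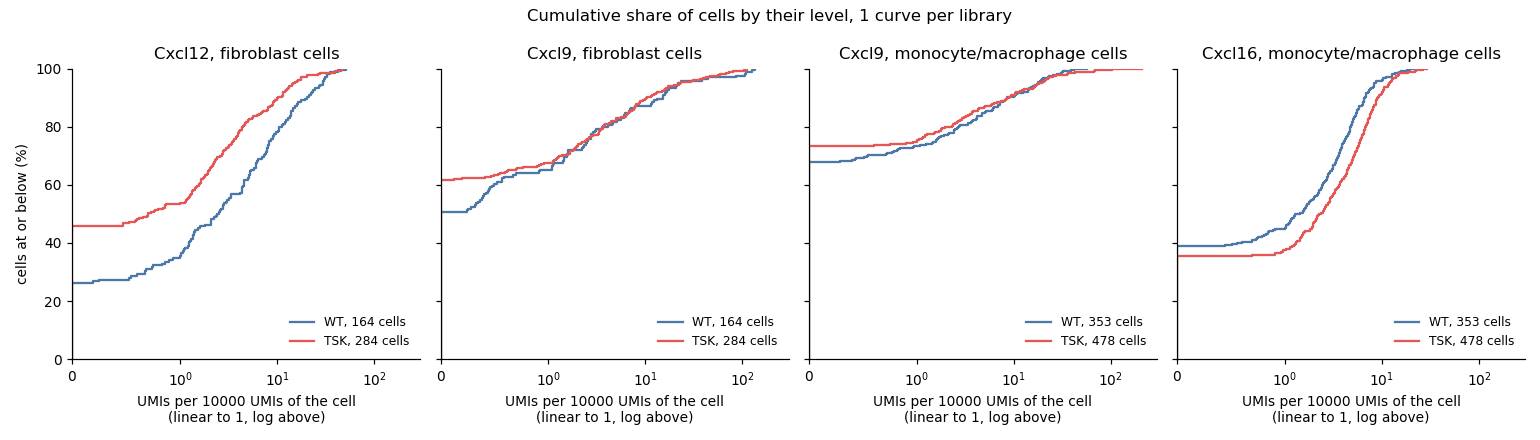
Cumulative share of cells (percent, y axis) at or below a level (UMIs of the gene per 10000 UMIs of the cell, x axis, linear to 1 and logarithmic above) for Cxcl12 and Cxcl9 in fibroblasts and Cxcl9 and Cxcl16 in macrophages, with 1 curve for the WT (blue) and 1 for the TSK library (red). The Cxcl12 curves are apart over the whole range (164 WT and 284 TSK fibroblasts), the Cxcl9 curves run together above 1, and the Cxcl16 curve of the 478 TSK macrophages lies to the right of that of the 353 WT macrophages.

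In endothelial cells Cxcl9 reached 1133 CPM in the WT library (1120 UMIs, 1068 to 1201) and 317 CPM in the TSK library (168 UMIs, 271 to 368), where the log2 ratio was -1.84 (-2.08 to -1.60). Here too 1 WT cell held 427 UMIs. The 5 highest cells held 70.8% and 57.7% of the UMIs, 57.6% and 46.9% of the cells had a UMI, and the ratio without those cells was -1.40. The difference was smaller where deep cells weighed less. Among cells with 10000 UMIs or fewer Cxcl9 was at 874 CPM (25 WT cells) and 735 CPM (28 TSK cells), a log2 ratio of -0.25 (-0.62 to 0.12) that includes no difference, and among deeper cells at 1184 CPM (34 cells) and 146 CPM (21 cells), a log2 ratio of -3.02 (-3.44 to -2.63). At 1000 UMIs per cell, 25.4% (14.98 to 38.4%) and 19.6% (9.36 to 33.9%) of endothelial cells had a UMI, which overlap, and with each cell weighing the same the ratio was -0.70. In macrophages Cxcl9 was at 337 CPM (1349 UMIs, 319 to 355) and 314 CPM (1111 UMIs, 296 to 333), a log2 ratio of -0.10 (-0.22 to 0.01) that includes no difference. Its sign depended on the depth of the cells, with 156 and 283 CPM among macrophages of 10000 UMIs or fewer (0.86, 0.61 to 1.12) and 405 and 346 CPM among deeper ones (-0.23, -0.37 to -0.09). Cancer cells were at 97.05 CPM and 37.1 CPM, with 86.8% of the WT UMIs in 5 of 86 cells. T cells held 8 Cxcl9 UMIs in 461 WT cells and 17 in 275 TSK cells.

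Cxcl10, the other Cxcr3 ligand measured, had no single main source, and the order of its sources by share of UMIs differed between libraries. Of its WT UMIs fibroblasts held 34.5%, macrophages 22.8% and cancer cells 13.8%. Of its TSK UMIs cancer cells held 49.3%, fibroblasts 13.6% and macrophages 12.2%. Cancer cells held 17.4% of all WT and 59.3% of all TSK UMIs, and their Cxcl10 level was below that of fibroblasts and macrophages in both libraries. In fibroblasts it was at 301 CPM (1119 UMIs, 284 to 319) and 214 CPM (812 UMIs, 199 to 229), higher in the WT library with a log2 ratio of -0.49 (-0.63 to -0.36). That ratio was -0.076 (-0.59 to 0.47) among fibroblasts of 10000 UMIs or fewer and -0.033 among those without a cancer-marker UMI. With cells thinned to 1000 UMIs it was 0.14, with 12.03% of WT and 15.4% of TSK fibroblasts having a UMI. In macrophages it was at 184 CPM (738 UMIs, 171 to 198) and 206 CPM (730 UMIs, 192 to 222), a log2 ratio of 0.16 (0.01 to 0.31). Relative to the median gene of macrophages this was -0.11. The direction in macrophages turned in 4 of 12 settings, with log2 ratios from -0.29 to 0.41. In cancer cells it was at 151 CPM (137 to 165) and 109 CPM (105 to 113). Endothelial cells were at 127 CPM (106 to 152) and 204 CPM (167 to 246), but in the TSK library the 5 highest of 49 cells held 97.2% of the UMIs. In T cells it was at 65.3 and 64.2 CPM, with intervals that overlap. Mural cells were at 742 CPM (258 UMIs in 18 cells) and 159.9 CPM (111 UMIs in 50 cells), a log2 ratio of -2.21 (-2.55 to -1.89), and there the 5 highest cells held 95.7% and 83.8% of the UMIs.

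Whether Cxcl10 was found in the same cells as Cxcl9 was compared in 5 lineages of each library, and the shares had intervals apart in 4 of these 10 cases, higher with Cxcl9 in each. At 1000 UMIs per cell, 48.9% of the 45 TSK fibroblasts with a Cxcl9 UMI also had a Cxcl10 UMI (33.7 to 64.2%), against 8.97% of the 234 without (5.64 to 13.4%). In WT fibroblasts the shares were 32.1% of 28 (15.9 to 52.4%) and 7.69% of 130 (3.75 to 13.7%). In TSK macrophages they were 30.6% of 62 (19.6 to 43.7%) and 7.53% of 385 (5.10 to 10.6%), while in WT macrophages they were 10.9% of 46 (3.62 to 23.6%) and 9.06% of 298 (6.06 to 12.9%), which overlap. In TSK cancer cells they were 38.9% of 18 (17.3 to 64.3%) and 4.88% of 861 (3.54 to 6.54%), and in WT cancer cells 0 of 2 and 7.14% of 84. Mural cells had 5% of 20 and 10.7% of 28 in the TSK library and 3 of 9 and 0 of 9 in the WT library, and endothelial cells 3 of 9 and 0 of 37 (TSK) and 3 of 15 and 0 of 44 (WT), all with intervals that overlap. Cells of 1 library are not replicates, so these intervals describe the cells of each library only. Cxcl12 was found in 22.2% of the TSK fibroblasts with Cxcl9 and 18.8% of those without, and in 21.4% and 33.8% of WT fibroblasts, and both pairs of intervals overlap.

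Cxcl16, the ligand of Cxcr6, was a macrophage gene here: 74.95% of its UMIs were in monocytes and macrophages and 10.5% in fibroblasts. The WT macrophages held 1104 UMIs (276 CPM, 260 to 292) and the TSK macrophages 1332 UMIs (376 CPM, 356 to 397). The TSK level was higher and the intervals did not overlap, with a log2 ratio of 0.45 (0.33 to 0.57), or 0.18 relative to the median gene of the lineage. It was spread over many cells, 61.2% of WT and 64.6% of TSK macrophages having a UMI and the 5 highest cells holding 11.1% and 7.88%. In fibroblasts it was at 50.05 CPM (43.1 to 57.8) and 40.8 CPM (34.6 to 47.7). Of the 5 members with at least 20 UMIs in macrophages, 0 were 2-fold lower and 0 were 2-fold higher in the TSK library, beside 3.09% and 11.7% of 10661 genes (14.8% in either direction), and their median log2 ratio was 0.05.

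Ccl5, an attractant of T cells and monocytes, had the most UMIs of the members in the WT library and, after Cxcl10, the second most in the TSK library. T cells held 76.8% of its WT and 47.2% of its TSK UMIs, and macrophages 12.2% and 21.6%. WT T cells were at 2442 CPM (8187 UMIs, 2390 to 2496) and TSK T cells at 2992 CPM (2609 UMIs, 2878 to 3109). The TSK level was higher by a log2 ratio of 0.29 (0.23 to 0.36), or 0.15 relative to the median gene, and the intervals did not overlap. NK cells were at 4375 CPM (15 cells, 4002 to 4774) and 3150 CPM (17 cells, 2709 to 3642), and macrophages at 325 and 337 CPM with overlapping intervals. Within T cells the level was highest in CD8 cells outside the cell cycle, at 3250 CPM in 306 WT cells and 4006 CPM in 158 TSK cells. Cycling CD8 cells were at 1759 and 1680 CPM, and T cells in none of the named subsets at 1482 CPM (73 cells) and 2078 CPM (70 cells). Dendritic cells were at 460.2 CPM (8 cells, 56 UMIs) and 3316 CPM (9 cells, 149 UMIs, 68 of them in 1 cell). The 5 highest dendritic cells held 99.3% of those TSK UMIs. CD4 T cells without Foxp3 were at 189 CPM (54 cells, 76 UMIs) and 828 CPM (20 cells, 53 UMIs), where 24.1% and 15% of the cells had a UMI and 1 TSK cell held 47 of the 53 UMIs. Foxp3 T cells were at 120 CPM in 12 WT cells (10 UMIs) and 108 CPM in 9 TSK cells (3 UMIs).

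**Figure D3:**
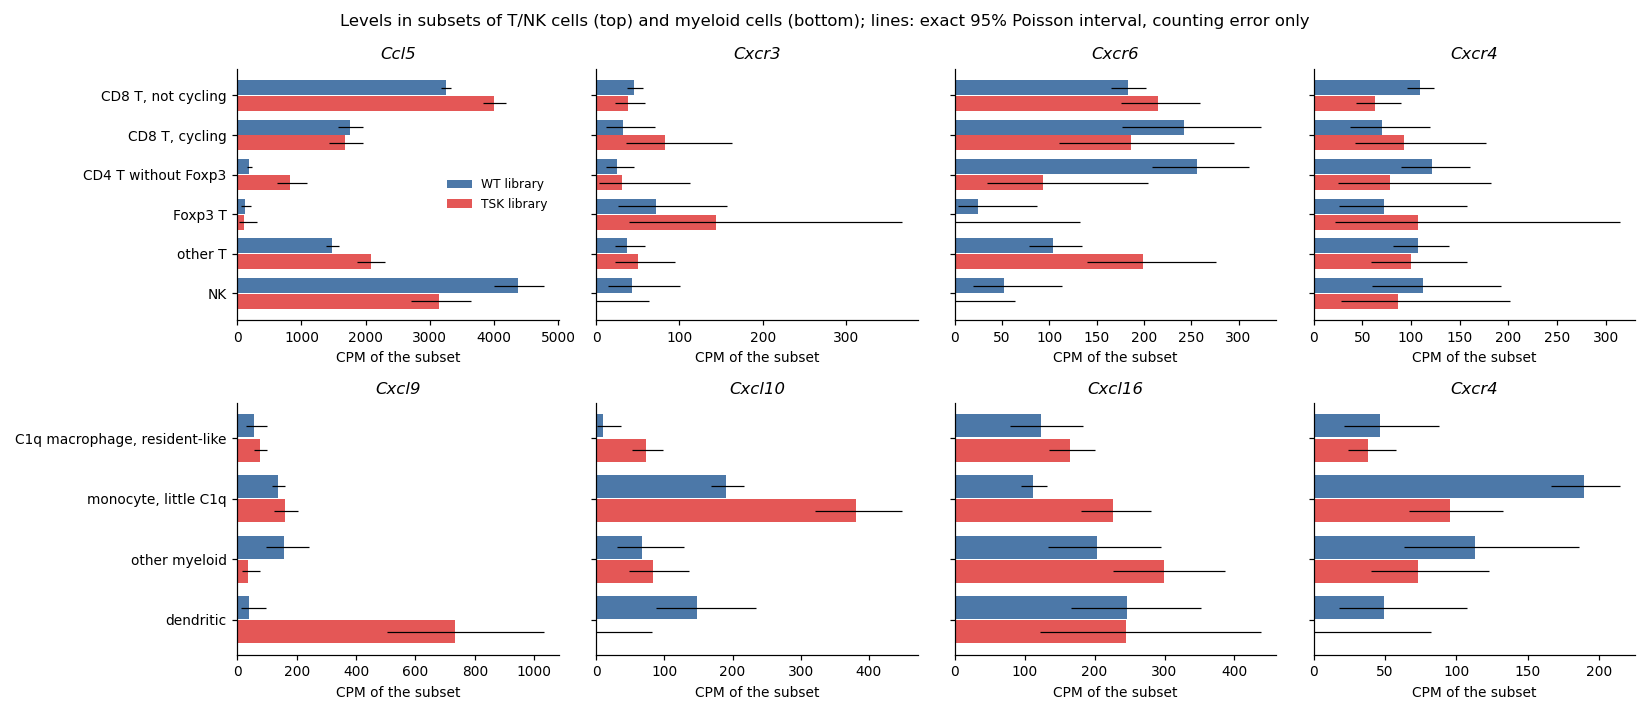
Level (CPM of the subset) of 4 members in subsets of T and NK cells (top row) and of 4 in subsets of myeloid cells (bottom row) of the WT (blue) and TSK (red) libraries; bars are summed UMIs and lines are exact 95% Poisson intervals. Ccl5 is at 4375 and 3150 CPM in NK cells and at 3250 and 4006 CPM in CD8 T cells outside the cell cycle, and Cxcl16 is at 112 and 226.5 CPM in monocytes with little C1q.

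In T cells the ratios of Cxcr6 and Cxcr3 included no difference, and the interval of Cxcr4 lay below 0, though not when cells were thinned. Cxcr6, the Cxcl16 receptor, was at 178 CPM (598 UMIs, 164 to 193) in WT and 193 CPM (168 UMIs, 165 to 224) in TSK T cells, a log2 ratio of 0.11 (-0.14 to 0.36), and T cells held 86.8% of its UMIs. Cxcr3, the receptor of Cxcl9 and Cxcl10, was at 42.1 CPM (141 UMIs, 35.4 to 49.6) and 48.2 CPM (42 UMIs, 34.7 to 65.1), a log2 ratio of 0.20 (-0.34 to 0.70), with 86.7% of its UMIs in T cells. For both the interval includes no difference, and a difference within these intervals was not detectable at this depth. The unthinned share of T cells with a Cxcr6 UMI was 51.8% (WT) and 37.8% (TSK). At 1000 UMIs per cell it was 14.8% (11.7 to 18.4%) and 17.1% (12.8 to 22.1%), and that of Cxcr3 was 4.78% (3.02 to 7.15%) and 2.23% (0.823 to 4.79%). No fibroblast had a UMI of either at that depth (0 of 158 and 0 of 279). Of 460 WT and 269 TSK T cells thinned in this way, 22 and 6 had a Cxcr3 UMI, and 4 and 2 of these also had a Cxcr6 UMI.

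Cxcr4, the Cxcl12 receptor, had 42.7% of its WT and 48.3% of its TSK UMIs in macrophages, while T cells held 37.3% and 12.98%. WT T cells were at 107 CPM (360 UMIs, 96.6 to 119) and TSK T cells at 76.8 CPM (67 UMIs, 59.5 to 97.6), lower in the latter by a log2 ratio of -0.48 (-0.88 to -0.10). At 1000 UMIs per cell, 9.78% (7.23 to 12.9%) and 8.92% (5.80 to 12.98%) of T cells had a UMI, which overlap. Macrophages were at 103 CPM (412 UMIs, 93.1 to 113) and 70.3 CPM (249 UMIs, 61.9 to 79.6), a log2 ratio of -0.55 (-0.78 to -0.32). Endothelial cells were at 68.8 and 65.95 CPM, and neutrophils at 281 CPM (33 UMIs in 42 cells, 193 to 395) and 85.2 CPM (61 UMIs in 219 cells, 65.2 to 109). Fibroblasts, at 1.88 and 1.58 CPM, and cancer cells, at 0.674 and 0.664 CPM, held almost none. Of the 6 members with at least 20 UMIs in T cells, 0 were 2-fold lower and 1 was 2-fold higher in the TSK library (Cxcl9, at 8 and 17 UMIs), beside 4.13% and 5.7% of 8907 genes (9.83% in either direction), and their median log2 ratio was 0.15. In cancer cells 3 of 6 members (Cxcl9, Cxcl16 and Cxcr6) were 2-fold lower and 0 higher, beside 9.86% lower, 10.6% higher and 20.4% in either direction among 14198 genes. There all 6 WT UMIs of Cxcr6 came from 1 of 86 cells, and 1.16% of WT and 1.01% of TSK cancer cells had one. In neutrophils 2 of 3 (Cxcl9 and Cxcr4) were 2-fold lower and 0 higher, beside 13.1%, 41.1% and 54.3% of 4785 genes. All 21 WT UMIs of Cxcl9 in neutrophils came from 1 of 42 cells, against 25 UMIs in 8 of 219 TSK cells.

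**Figure D4:**
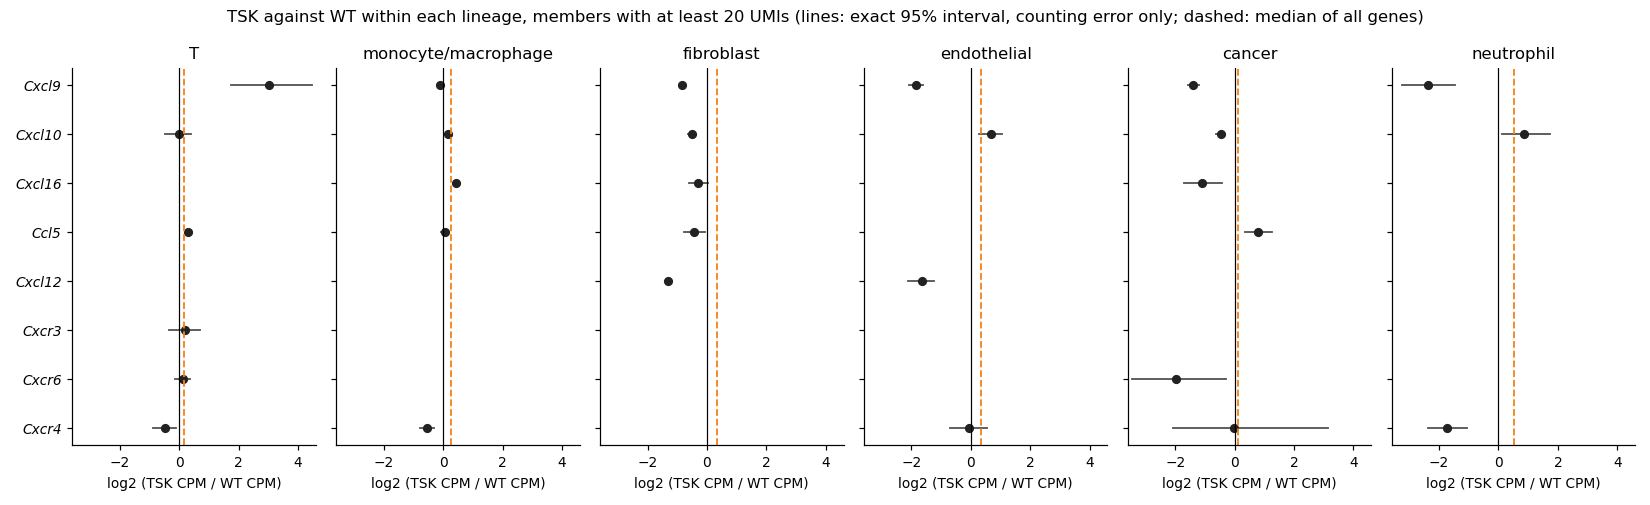
Log2 ratio of the TSK over the WT level in 6 lineages for members with at least 20 UMIs; points are ratios of CPM, lines exact 95% intervals from counting error, and the dashed line is the median of all genes in the lineage. The members in T cells and macrophages lie between -0.55 and 0.45, apart from Cxcl9 in T cells at 3.03 with 25 UMIs in all, and Cxcl12 and Cxcl9 lie to the left in fibroblasts and endothelial cells.

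Within T cells, Cxcr6 was at 183 CPM (165 to 202) in 306 WT and 215 CPM (176 to 259) in 158 TSK CD8 T cells outside the cell cycle. In CD4 T cells without Foxp3 it was at 256 CPM in 54 WT cells (103 UMIs, 209 to 311) and 93.8 CPM in 20 TSK cells (6 UMIs), a log2 ratio of -1.45 (-2.93 to -0.28). T cells in none of the named subsets went the other way, at 103.6 CPM (55 UMIs) and 199.5 CPM (36 UMIs), a log2 ratio of 0.95 (0.30 to 1.58). Foxp3 T cells held 2 Cxcr6 UMIs, both in 1 of 12 WT cells, and 0 UMIs in 9 TSK cells. The Cxcr4 level in CD8 T cells outside the cell cycle was 109 CPM (95.8 to 124) and 63.6 CPM (43.5 to 89.8). Cxcr3 in the same cells was at 46.0 CPM (37.4 to 56.1) and 37.8 CPM (22.7 to 59.0), which overlap.

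In 2 myeloid subsets the levels were as follows. Cxcl16 in monocytes with little C1q was at 112 CPM in 149 WT cells (94.2 to 132) and at 226.5 CPM in 85 TSK cells (181 to 280), higher in the latter with intervals that did not overlap. Cxcl10 in the same monocytes was at 191 CPM (168 to 216) and 381 CPM (321 to 449), but 5 cells held 48.8% and 79.7% of these UMIs, 26.8% and 20% of the cells had one, and at 1000 UMIs per cell the shares of 12.2% and 14.8% overlapped. Cxcl9 there was at 137 and 159.9 CPM, with intervals that overlap. Cxcr4 was at 189 CPM (166 to 215) in these monocytes of the WT library, against 95.9 CPM (67.2 to 133) in the TSK library. C1q macrophages with UMIs of at least 2 of the resident macrophage genes Folr2, Lyve1 and Cd163 were at 56.7 CPM (11 cells) and 75.05 CPM (65 cells) for Cxcl9 and at 124 and 165 CPM for Cxcl16, and both pairs of intervals overlap. The monocytes were 42.2% of WT and 17.8% of TSK cells of the lineage and the resident-like cells 3.12% and 13.6%, so the level over all macrophages also carries this makeup.

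Over all kept cells each member was lower in the TSK library. Ccl5 was at 624 CPM among WT cells and 121 CPM among TSK cells, Cxcr3 at 9.14 and 1.205 CPM, Cxcr6 at 38.9 and 4.80 CPM, and Cxcr4 at 56.6 and 11.3 CPM. Cxcl12 was at 182 and 27.2 CPM, Cxcl9 at 390.1 and 109.6 CPM, Cxcl16 at 87.5 and 38.5 CPM and Cxcl10 at 189.9 and 130.9 CPM. These directions depended on a limit to the depth of cells, which also changes the makeup of each library. With at most 10000 UMIs and genes per cell, the limit used in the study, some log2 ratios over all cells turned. They went from -1.83 to 1.10 for Cxcl9, from -0.54 to 0.35 for Cxcl10 and from -1.19 to 1.03 for Cxcl16. For Cxcl12 the ratio went from -2.74 to -0.12. Those of Cxcr3, Cxcr6, Cxcr4 and Ccl5 stayed negative but moved, from between -3.02 and -2.32 to between -1.78 and -1.12. In such a sum fewer cells of a type and less RNA per cell cannot be told apart. To separate them as arithmetic, the lineage levels of the TSK library were weighted by the lineage shares of UMIs of the WT library. Cxcr6 then came to 38.7 CPM, Cxcr3 to 10.2 CPM, Ccl5 to 732 CPM and Cxcl16 to 103 CPM, near the WT level for Cxcr6 and above it for the other three. Cxcl12 came to 71.3 CPM, Cxcl9 to 218 CPM, Cxcl10 to 153 CPM and Cxcr4 to 38.1 CPM, still below theirs. The other order of weighting, WT levels at the TSK shares, left other differences. Cxcr6 came to 11.3 CPM against 4.80 CPM in the TSK library, Cxcl16 to 49.3 against 38.5 CPM, and Cxcr3 to 1.60 against 1.205 CPM. Cells without a lineage, a mixed group with 18.1% of TSK UMIs, were part of both weightings. Their Cxcr6 level was 35.2 CPM (WT) and 3.15 CPM (TSK), while in T cells it was 178 and 193 CPM. The Cxcr6 difference left by this weighting is therefore not one in T cells. Cxcl10 came to 188 CPM, Cxcl9 to 250 CPM, Cxcl12 to 78.4 CPM, Cxcr4 to 24.8 CPM and Ccl5 to 146 CPM, each above its TSK level.

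**Figure D5:**
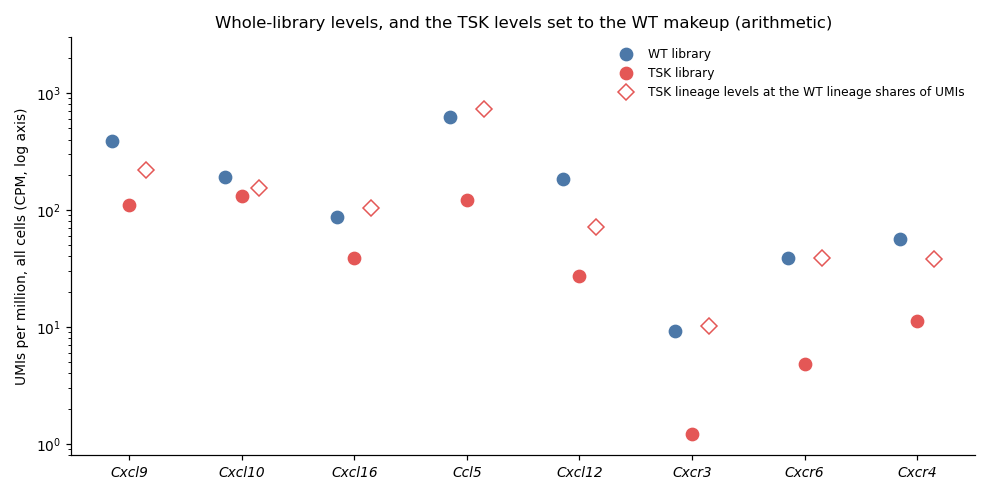
Level of each member over all cells (CPM, logarithmic axis) in the WT library (blue), the TSK library (red) and, as arithmetic, from the TSK lineage levels at the WT lineage shares of UMIs (open diamonds). The diamonds of Cxcr3 and Cxcr6 lie at 10.2 and 38.7 CPM, beside the WT points, and that of Cxcl12 lies at 71.3 CPM between its WT and TSK points.

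The other genes of the pathway were taken from 5 lists with 47 genes (other ligands, other receptors and scavengers, the interferon gamma axis, enzymes that process ligands, and retention or exit of T cells), of which 46 were in the tables. In T cells 31 had at least 20 UMIs, of which 1 was 2-fold lower and 1 was 2-fold higher in the TSK library, beside 4.13% lower and 5.7% higher among all genes, with a median log2 ratio of 0.11 against 0.14 for all genes. The lower was Tnf, an inflammatory cytokine, at 41.5 CPM (139 UMIs) and 16.1 CPM (14 UMIs), and the higher Ccr8, a receptor of regulatory T cells, at 4.47 and 17.2 CPM (15 UMIs each). Ifng, the inducer of Cxcl9 and Cxcl10, was at 169 CPM (567 UMIs) and 136 CPM (119 UMIs), a log2 ratio of -0.31 (-0.61 to -0.02). The retention gene Cd69 was at 194 and 138 CPM. Runx3, which drives CD8 and tissue-dwelling programs, was at 206 and 308 CPM.

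In macrophages 28 of the 46 genes had at least 20 UMIs, of which 4 were 2-fold lower and 2 were 2-fold higher in the TSK library, beside 3.09% lower and 11.7% higher among all genes, with a median log2 ratio of -0.24 against 0.27 for all genes. The lower genes included the integrin chains Itgb7 (55.9 and 20.9 CPM) and Itga1 (40.7 and 16.7 CPM), and Ccl17, a ligand of Ccr4, with 372 UMIs in the WT library, 367 of them in 1 cell, and 1 UMI in the TSK library. The higher genes were S1pr1, a receptor for exit from tissue, at 3.24 and 23.2 CPM, and Cxcl13, a B cell attractant, with 0 UMIs in the WT library and 24 UMIs in 5 TSK cells. Irf1, a transcription factor induced by interferon, was at 311 and 161 CPM (log2 ratio -0.95, -1.10 to -0.81). Ccr2, the receptor of inflammatory monocytes, was at 371 and 191 CPM, and Ccl8 at 1171 and 2162 CPM.

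In fibroblasts 25 of the 46 genes had at least 20 UMIs, of which 5 were 2-fold lower and 2 were 2-fold higher in the TSK library, beside 4.48% lower and 14.9% higher among all genes, with a median log2 ratio of -0.33 against 0.34 for all genes. The lower genes included Cxcl13, at 87.2 CPM (324 UMIs, 179 of them in 1 cell) and 8.95 CPM (34 UMIs), and Ccl19, a ligand of Ccr7 made by lymphoid stroma, at 46.0 CPM (171 UMIs in 57 cells) and 11.3 CPM (43 UMIs in 32 cells). S1pr1, with 25 WT and 4 TSK UMIs, was also among them. The higher genes were Klf2, at 106 and 220 CPM, and the scavenger Ackr2, at 5 and 19 UMIs. Ackr3, the scavenger of Cxcl12, was at 364 CPM (1351 UMIs) and 206 CPM (783 UMIs), with a log2 ratio of -0.82 (-0.95 to -0.69). In endothelial cells 16 of the 46 genes had at least 20 UMIs, of which 4 were 2-fold lower and 0 higher in the TSK library, beside 6.23% lower and 15.6% higher among all genes, with a median log2 ratio of -0.20 against 0.33 for all genes. Irf1 was at 284 and 77.3 CPM and Ifngr1, a chain of the interferon gamma receptor, at 104 and 49.0 CPM. The other chain, Ifngr2, went the other way, at 32.4 CPM (32 UMIs) and 64.1 CPM (34 UMIs), with a log2 ratio of 0.98 (0.24 to 1.73). Ackr1, a scavenger of venules, had 22 UMIs in 6 WT cells and 0 UMIs in the TSK library, where 3 UMIs would be 5.65 CPM, and Cx3cl1 had 20 and 2 UMIs.

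The genes whose pattern was most like that of each member were taken over 14 points, 7 lineages in each of the 2 libraries, by Pearson's correlation of log2(CPM + 10) among 15106 genes. The points share their library, and the values describe a likeness of pattern only. For Cxcr3 these included Gm15472 and Cst7 (r = 0.998 and 0.997), and for Cxcr6 Tnfrsf18, Pglyrp2 and Ikzf3 (0.996, 0.988 and 0.988). For Cxcl16 they were Hpse, Naaa and Ccl8 (0.975, 0.964 and 0.954), for Ccl5 B4galnt1, Gna15 and Gpr171 (0.974, 0.968 and 0.966), and for Cxcl12 Ly6c1, Zbtb20 and Msx1 (0.977, 0.969 and 0.962). Cxcr4 was most like Inpp5d, Arhgap25 and Itsn2 (0.972, 0.965 and 0.961), Cxcl9 like Lpp, Mmp14 and Myadm (0.916, 0.906 and 0.903), and Cxcl10 like Zdhhc1, Usp35 and Ppef2 (0.864, 0.853 and 0.845).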

How the data were processed

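The counts were used as the authors deposited them, whole numbers of UMIs for each gene in each barcode that had not been normalized. They came from 3′ libraries of the 10x Genomics v2 kind after removal of dead and red cells, with the tumors pooled by genotype. The matrix header names Cell Ranger 7.1.0, and the submitters' processing notes name 7.1.1 and the build mm10. No upper limit on UMIs or genes was set, unlike in the study, whose limit of 10000 was an alternative. The members, lists and rules were chosen with earlier results of these data known, and the use of Ly6c2 and Plac8 and the rule for mural cells were set after seeing these data. Genes named are the members, the pathway lists, Fbn1, lineage markers and the 3 genes most like each member. Doublets were not removed. Some genes of the lists, and cell subsets that rest on a gene of this kind, are not reported here; counts over a list cover all its genes.

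UMIs were summed per lineage and library. Levels carry exact Poisson intervals, shares of cells exact binomial (Clopper-Pearson) intervals and ratios exact conditional binomial intervals, all at 95%. A count of 0 was taken to allow 3 counts. For shares compared across depths, each cell was thinned to 1000 UMIs, leaving out 380 cells with fewer. The ratio intervals were checked on simulated Poisson counts of whole lineages, which do not model UMIs concentrated in single cells. The lineage rule was run only on a few made-up cells, so neither check measures how well it works on these cells. The tools were scanpy 1.11.5, leidenalg 0.10.2, matplotlib 3.10.9, pandas 2.3.3, scipy 1.17.1 and numpy 2.4.6 under Python 3.11.15. Alternatives were other limits on UMIs and mitochondrial UMIs, shared barcodes kept, Leiden clusters, stricter markers, removal of doublets called by Scrublet, equal weight per cell, thinning, and a scaling that sets the median ratio of all genes to no difference.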

Additional observations from a re-analysis of the deposited data

Results flagged for a closer look

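Several members had log2 ratios of TSK over WT of opposite sign in different lineages, and none of these differences between lineages was tested, since each genotype had 1 library. Cxcl9 was at 3.03 in T cells (8 and 17 UMIs) but at -2.36 in neutrophils (21 UMIs in 1 of 42 WT cells and 25 UMIs in 8 of 219 TSK cells), -0.83 in fibroblasts, -1.84 in endothelial cells and -1.39 in cancer cells. Cxcl10 was at 0.16 in macrophages, 0.87 in neutrophils and 0.68 in endothelial cells. It was at -0.49 in fibroblasts, -0.47 in cancer cells and -2.21 in mural cells. Its direction turned in 4 of 12 settings in macrophages and in 1 of 13 in fibroblasts. Cxcl16 was at 0.45 in macrophages and -1.09 in cancer cells. Ccl5 was at 0.29 in T cells and 0.80 in cancer cells, where the 5 highest cells held 97.8% and 79.1% of its UMIs, and 1.81 in mural cells (7 and 49 UMIs), and at -0.43 in fibroblasts.

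The barcodes found in both libraries, left out of all values, also held member UMIs. The 251 WT cells of this kind that passed the other limits held 3106376 UMIs, among them 428 of Cxcl9, 645 of Cxcl10, 53 of Cxcl16, 80 of Ccl5, 179 of Cxcl12, 4 of Cxcr6 and 54 of Cxcr4. The 255 TSK cells held 380072 UMIs, among them 8 of Cxcl9, 29 of Cxcl10, 4 of Cxcl16 and 8 of Cxcl12. From which library they came was not tested.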

How the results depend on the processing

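The log2 ratios of TSK over WT were recomputed under 8 to 13 settings each, of which the removal of the 5 highest cells, of cells with cancer-marker UMIs and of fibroblasts without Clec3b, Pi16 or Cd34, and all settings for fibroblasts and endothelial cells except those of Cxcl12 in fibroblasts, were chosen after seeing the data. Cxcl12 had ratios from -1.64 to -0.35 in fibroblasts and from -3.08 to -1.38 in endothelial cells, and Cxcl9 from -1.17 to -0.17 and from -2.17 to -0.25. All were below 0, but intervals included no difference for Cxcl12 in fibroblasts and Cxcl9 in endothelial cells with at most 10000 UMIs per cell, and for Cxcl9 in both lineages when thinned. Cxcl16 in macrophages stayed higher (0.18 to 0.73), Ccl5 in T cells stayed higher (0.09 to 0.37), Cxcr4 in T cells ranged from -0.63 to -0.41 except when cells were thinned, where -0.026 (-0.77 to 0.69) is no difference. Cxcr6 in T cells ranged from -0.03 to 0.14 and Cxcr3 in T cells from -1.10, when thinned (-2.69 to 0.25), to 0.28, and their intervals included no difference. Cxcl9 in macrophages, whose interval includes no difference, ranged from -0.37 to 0.86. The direction turned for Cxcl10 in macrophages and in fibroblasts and, over the whole library, for Cxcl9, Cxcl10 and Cxcl16, and the cause was not tested. Values that moved by more than their counting interval follow. With at most 10000 UMIs and 10000 genes per cell Cxcl9 was 0.86 and Cxcl16 0.73 in macrophages, and Ccl5 was 0.089 in T cells. Cxcl12 was -0.35, Cxcl9 -0.51 and Cxcl10 -0.076 in fibroblasts, and Cxcl9 was -0.25 and Cxcl12 -3.08 in endothelial cells. Cxcl9 was 1.10, Cxcl10 0.35, Cxcl16 1.03, Ccl5 -1.45, Cxcl12 -0.12, Cxcr3 -1.78, Cxcr6 -1.75 and Cxcr4 -1.12 in the whole library. With the mean of per-cell CPM, each cell weighing the same, Cxcl9 was 0.31 in macrophages, and Cxcl12 was -0.97, Cxcl9 -0.41 and Cxcl10 -0.29 in fibroblasts. Cxcl9 was -0.70 in endothelial cells, and Cxcl9 was -0.38, Cxcl10 0.021, Cxcl16 -0.041, Ccl5 -1.15, Cxcl12 -1.52, Cxcr3 -1.39, Cxcr6 -1.54 and Cxcr4 -1.31 in the whole library. Scaled by the median of gene ratios, Cxcl9 was -0.37, Cxcl10 -0.11 and Cxcl16 0.18 in macrophages, and Ccl5 was 0.15 in T cells. Cxcl12 was -1.64, Cxcl9 -1.17 and Cxcl10 -0.83 in fibroblasts, and Cxcl9 was -2.17 in endothelial cells. Cxcl9 was -1.97, Cxcl10 -0.67, Cxcl16 -1.32, Ccl5 -2.50 and Cxcl12 -2.88 in the whole library. With each cell thinned to 1000 UMIs Cxcl9 was 0.12 and Cxcl10 0.41 in macrophages, and Ccl5 was 0.23, Cxcr3 -1.10 and Cxcr4 -0.026 in T cells. Cxcl12 was -0.93, Cxcl9 -0.22 and Cxcl10 0.14 in fibroblasts, and Cxcl9 was -0.41 in endothelial cells. Cxcl9 was -0.42, Cxcl10 0.13, Cxcl16 -0.17, Ccl5 -1.22, Cxcl12 -1.42, Cxcr6 -1.70 and Cxcr4 -1.28 in the whole library. In cells without a UMI of the cancer markers Cxcl9 was 0.19, Cxcl10 -0.29 and Cxcl16 0.62 in macrophages, and Ccl5 was 0.37 in T cells. Cxcl12 was -0.89, Cxcl9 -0.17 and Cxcl10 -0.033 in fibroblasts, and Cxcl9 was -1.36 and Cxcl12 -2.41 in endothelial cells. With lineages from Leiden clusters Cxcl10 was -0.046 in macrophages, and Ccl5 was 0.22 in T cells. Cxcl10 was -0.66 in fibroblasts, and Cxcl9 was -1.14 in endothelial cells. Under a stricter demand on marker UMIs Cxcl10 was -0.13 in macrophages, and Cxcl12 was -1.03, Cxcl9 -0.52 and Cxcl10 -0.19 in fibroblasts. In fibroblasts with Clec3b, Pi16 or Cd34 Cxcl12 was -1.04 and Cxcl9 -1.07 in fibroblasts. Without the 5 cells of each library with the most UMIs of the gene Cxcl9 was -0.41 and Cxcl10 -0.29 in fibroblasts, and Cxcl9 was -1.40 and Cxcl12 -2.85 in endothelial cells. With the shared barcodes kept Cxcl9 was -1.69, Cxcl16 -1.004, Ccl5 -2.15, Cxcl12 -2.59 and Cxcr4 -2.17 in the whole library. With at most 5% mitochondrial UMIs Cxcl10 was -0.47 in the whole library. Of the 46 pathway genes, those with at least 20 UMIs numbered 31 in T cells, 28 in macrophages, 25 in fibroblasts and 16 in endothelial cells. Of these, 2, 6, 7 and 4 were past 2-fold in either direction, beside 9.83%, 14.8%, 19.3% and 21.8% of all genes. With at least 50 UMIs the number was 1, 5, 4 and 2, and with at least 1 UMI in each library 4, 9, 12 and 9. At 1.5-fold it was 5, 14, 13 and 6. The shares of all genes were not computed at these other limits, so those counts cannot be set against a background. Of the values of the main comparisons, 135 stayed within their interval, 86 moved and 10 turned, and of the further values 31 stayed and 33 moved. The doublet caller marked 9 WT cells (0.624%) and 0 TSK cells and has not worked here, so doublets remained in all values. No paired analysis was possible because each genotype had 1 library.

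Depth limits Cxcr3 (211 UMIs), all subsets of CD4 T cells and every value in NK, dendritic and mural cells. T cells over 10000 UMIs numbered 61 (WT) and 1 (TSK), so the libraries could not be compared among deep T cells. Nothing here measures the spread between mice.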
